A study of Homo sapiens with 84 samples.

Results

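Interferon response genes are the genes a cell switches on when interferon binds its receptors, and 49 of them were followed here through 8 human lymphoma cell lines treated with kinase inhibitors. The members were a list of gene names that needed no measured value. On the arrays 48 of the 49 had a probe with their name, of 20046 gene symbols in all, and STAT2 was not analysed here. The brightest probe stood for each gene. Of the 48, 45 passed the filter on dim probes (the brighter 50% of probes by mean level) for the comparison over 8 lines, and 44 passed it for the comparison of the 4 lines that received every inhibitor. RSAD2, CMPK2 and SAMHD1 failed both filters, and HERC5 failed the second.

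Expression was measured on 84 Illumina bead arrays. RIVA, TMD8, SUDHL2, U2932, OCILY1, OCILY18, DOHH2 and SUDHL10 each received the solvent DMSO or PQR309, a dual inhibitor of PI3K and mTOR, with samples taken 4, 8 and 12 h later. The first 4 of these lines also received idelalisib, an inhibitor of the PI3K delta isoform, duvelisib, an inhibitor of the delta and gamma isoforms, or ibrutinib, a covalent inhibitor of the B-cell kinase BTK, at the same times. The lines are established cultures of B-cell lymphoma. RIVA, TMD8, SUDHL2 and U2932 are commonly placed in the activated B-cell-like class and the other 4 in the germinal-centre class, which the labels do not state. Each combination of line, treatment and time has 1 array, no dose is given, and the labels do not say whether the cultures were separate, so p-values measure the spread between lines.

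Type I and type III interferons signal through the kinases JAK1 and TYK2 to a complex that includes STAT2 and IRF9 and binds a DNA element called the ISRE. The type II response acts through another element, called GAS. The induced proteins sense viral RNA, tag proteins with the ubiquitin-like ISG15, block translation of foreign RNA or degrade it. Lymphoma cells with chronic B-cell receptor or Toll-like receptor signalling can produce interferon themselves.

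The ISRE was searched for in the sequence before each member's start. In RefSeq windows of 250 bases before the annotated start (GRCh38.p14), 37 of the 48 members had a window. The ISRE core GAAANNGAAA, searched on both strands, lay in 23 of these 37 (62.2%), against 839 of 27305 windows of all genes (3.07%). The other 14, among them MX1, OAS1, IRF9, IRF1 and SAMD9L, held no match in this window. Only the first listed window of each gene was searched. Some of these genes have several, as MX1 has 3, and a match before another start was not looked for. The GAS core TTCNNNGAA lay in 10 members (27%), against 6.78% of all windows. The forkhead core GTAAACA, a sequence bound by FOXO factors, lay in 2 members (5.41%), against 2.98%. A match describes letters and not binding. The following windows of 150 bases upstream of the start belong to members on which the results below turn, namely IFIT1, ISG15 and BST2, which were lower with inhibitors in at least one comparison, and ISG20 and SAMD9, which were higher with PQR309. Capitals mark the ISRE matches, on whichever strand they lie. The IFIT1 window is chr10:89392473-89392622 and the ISG15 window is chr1:1013347-1013496, both on the plus strand. The BST2 window is chr19:17405631-17405780 on the minus strand. The ISG20 window is chr15:88638866-88639015 on the plus strand and the SAMD9 window is chr7:93117980-93118129 on the minus strand.
IFIT1: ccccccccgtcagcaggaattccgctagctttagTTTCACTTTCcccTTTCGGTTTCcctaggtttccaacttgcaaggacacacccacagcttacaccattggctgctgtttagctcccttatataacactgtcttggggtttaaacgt
ISG15: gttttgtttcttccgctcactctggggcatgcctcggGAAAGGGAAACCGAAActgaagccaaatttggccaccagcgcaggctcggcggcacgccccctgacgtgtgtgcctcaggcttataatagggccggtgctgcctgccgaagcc
BST2: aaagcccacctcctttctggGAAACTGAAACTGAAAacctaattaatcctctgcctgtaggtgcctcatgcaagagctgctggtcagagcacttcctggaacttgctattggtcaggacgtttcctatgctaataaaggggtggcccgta
ISG20: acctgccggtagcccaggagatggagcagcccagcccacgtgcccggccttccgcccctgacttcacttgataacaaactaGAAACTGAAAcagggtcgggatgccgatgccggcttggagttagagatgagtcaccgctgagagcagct
SAMD9: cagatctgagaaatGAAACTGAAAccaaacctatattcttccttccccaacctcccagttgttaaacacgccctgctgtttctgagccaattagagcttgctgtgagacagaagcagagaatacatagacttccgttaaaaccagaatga
IFIT1 has 2 matches in its window, while ISG15 and BST2 have overlapping matches that run together as 1 stretch of capitals. ISG20 and SAMD9, which moved the other way from IFIT1 with PQR309, also carry the element, beginning 69 and 136 bases before the start.

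Before the results, a few facts of the whole data set bear on the values. The authors' normalized table, on a log2 scale, was used for the 8 lines, and the level of a probe at the detection limit there was 6.73. The deposited raw intensities, normalized anew, were used for the 4 lines, with 6.27 as the stand-in for that limit. For DMSO and PQR309 in RIVA, TMD8, SUDHL2 and U2932 and for DMSO in DOHH2 the raw table holds other arrays than the normalized table, with rank correlations of 0.816 to 0.910 over all probes, while 54 arrays rank identically. Levels were not compared between both tables. Of the B-cell markers, MS4A1, CD79A and CD79B were above the limit in all 8 lines, up to 13.2, and PAX5 was below it in all 8. Markers of T cells, myeloid cells and stroma did not exceed 6.76, 6.97 and 7.16.

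With DMSO, TMD8 and DOHH2 carried the interferon response genes at high levels and the other 6 lines did not. The median level over the 48 members was 8.56 in TMD8 and 8.53 in DOHH2, against 6.74 in U2932, 6.81 in OCILY18, 6.82 in OCILY1, 6.98 in RIVA, 7.18 in SUDHL2 and 7.21 in SUDHL10. In TMD8 44 members and in DOHH2 45 were above the detection limit, against 25 to 29 in each of the other lines. TMD8 was the highest line for 24 members and DOHH2 for 16, and U2932 was the lowest for 16. Because a bulk array measures a mixture, more responding cells and more RNA per cell cannot be told apart.

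MX1, a GTPase that blocks viral ribonucleoproteins, had the widest range. Its DMSO level, as the mean of 3 times, was 12.20 in TMD8, 11.96 in DOHH2, 9.69 in RIVA, 8.69 in OCILY1, 6.97 in OCILY18, 6.69 in SUDHL2, 6.55 in U2932 and 6.55 in SUDHL10. The last 3 lines lie at or under the detection limit, so the range of 5.65 is a log2 difference against background. LY6E, a membrane protein that restricts some coronaviruses, differed from this order: DOHH2 stood alone at 12.07 and the other 7 lines, TMD8 included, lay between 7.16 and 8.18. ISG15, the ubiquitin-like modifier, was highest in TMD8 at 11.10, followed by DOHH2 at 10.33, SUDHL10 at 10.03, OCILY1 at 9.34, RIVA at 8.93, SUDHL2 at 8.60 and U2932 at 7.57, and OCILY18 was at the limit at 6.73. The within-line SD over times was 0.42 on average, which includes the rise of ISG15 with time described below. DOHH2 and SUDHL10, neighbours in this order, do not differ beyond that spread, although DOHH2 was the higher at 4, 8 and 12 h. IFITM1, a membrane protein that hinders viral fusion, was 10.88 in DOHH2, 8.50 in TMD8 and 8.32 in SUDHL2, and at most 7.04 elsewhere. CXCL10, a chemokine that attracts T cells, was 10.65 in TMD8 and 9.12 in DOHH2, 7.24 in SUDHL2, 6.94 in RIVA and 6.57 to 6.76 in the others.

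**Figure D1:**
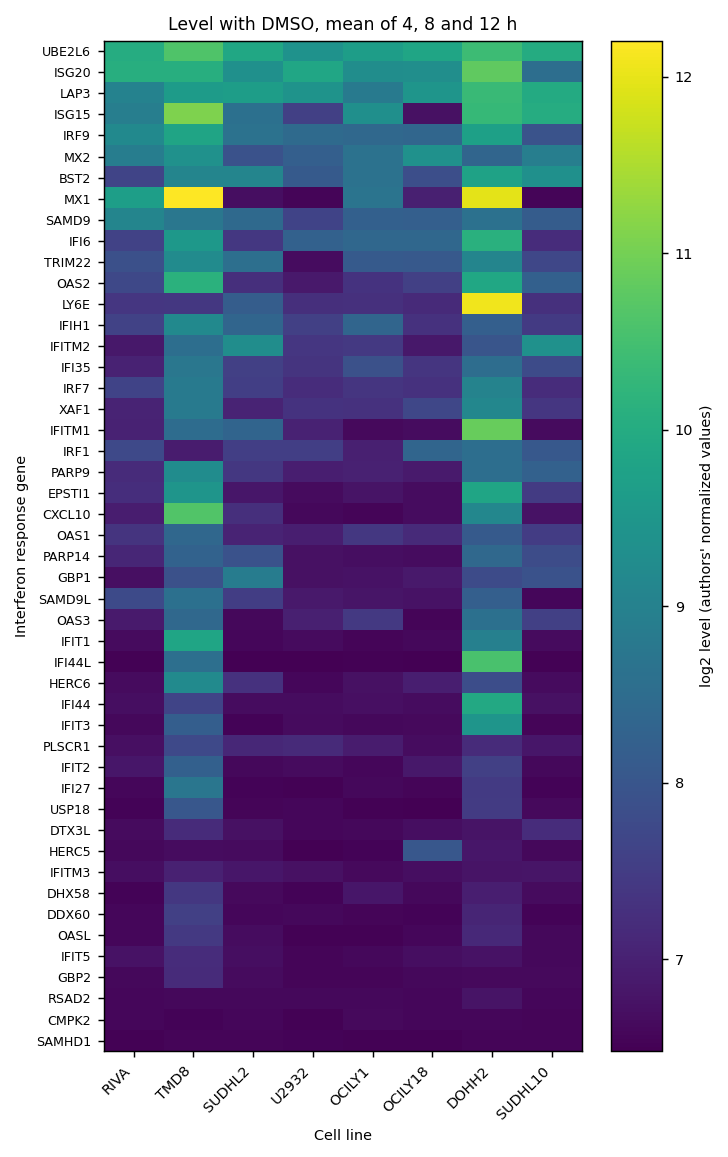
Levels of the 48 interferon response genes with DMSO in 8 lines, as the mean of the log2 values at 4, 8 and 12 h from the authors' normalized table, with genes in order of their mean. The columns of TMD8 and DOHH2 are bright for most genes, up to 12.20 for MX1 in TMD8, while values near 6.5 to 6.7 are at background.

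Further families followed TMD8 and DOHH2. The IFIT proteins bind foreign RNA ends, and IFIT1 was 9.85 in TMD8 and 8.98 in DOHH2 but 6.56 to 6.65 in the other 6 lines. IFIT3 was 9.46 in DOHH2, 8.20 in TMD8 and at most 6.65 elsewhere. IFI44L was 10.56 in DOHH2, 8.56 in TMD8 and 6.49 to 6.52 elsewhere, and USP18, the protease that removes ISG15 and damps the receptor, was 8.02 in TMD8, 7.48 in DOHH2 and at most 6.62 elsewhere. OAS2, which makes the activator of RNase L, was 10.14 in TMD8 and 9.89 in DOHH2, but was above the limit in all 8 lines.

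Other members did not follow this order. IRF1, a transcription factor induced mainly by type II interferon, was lowest in TMD8 at 6.91 and highest in DOHH2 at 8.56 and OCILY18 at 8.34. HERC5, the main ligase for ISG15, was 8.04 in OCILY18 and at most 6.83 elsewhere, in the line with the lowest ISG15. GBP1, a GTPase of the type II response, was highest in SUDHL2 at 8.88, and IFITM2 was highest in SUDHL10 at 9.39 and SUDHL2 at 9.29. SAMD9 was highest in RIVA at 9.07. MX2, a relative of MX1 that acts at the nuclear pore, was 9.37 in both TMD8 and OCILY18 and ranged over 1.44. UBE2L6, which conjugates ISG15, ISG20, an exonuclease, and LAP3, an aminopeptidase, were bright in every line, with lowest levels of 9.40, 8.54 and 8.85.

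Across lines 39 of the 45 tested members differed by over 1 on the log2 scale between the highest and the lowest line, and 23 by over 2. Of all 12440 genes tested, 35.6% and 8.68% did. The share is a description, since a member bright in 1 line could pass the filter through that line alone. Among the 39 members with a range over 1, chosen for that range, the median Pearson correlation of DMSO levels over 8 lines was 0.66 over 741 pairs. Of these pairs 331 were above 0.7 and 71 were below 0, and all share the same 8 lines, of which TMD8 and DOHH2 set most of the spread. Between the 4 lines that received every inhibitor and the other 4, 0 of 45 members differed in DMSO level by limma's test with Benjamini-Hochberg adjustment (0% of all genes called, with 787 of 12440 genes and 0 members at an unadjusted p under 0.05). Each group holds 1 of the high lines.

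PQR309 changed few interferon response genes in the same way in all lines. In the mean of 3 times over 8 lines, limma called 5 of 45 members higher and 2 lower, with line as a block, where 26.5% of all 12440 genes were called (12.5% higher and 14% lower). The members' share lies under that of all genes, and their median difference was -0.02 against 0.00 for all genes. ISG20, IRF1, SAMD9, MX2 and SAMD9L rose, and LAP3 and OAS3 fell. IFIT, IFITM and PARP9 family members, the RNA sensors and the ISG15 system had no call in this mean. Several members, among them IFIT1, IFIT3, IFI44L and USP18, were above the detection limit with DMSO in only 2 of the 8 lines. A change confined to such lines is hard to call over 8 lines, so no call there does not show a lack of response. This also bears on the members' share.

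ISG20, an exonuclease that degrades single-stranded RNA, rose most. With DMSO its level had a lowest line of 8.54, a median of 9.62 and a highest line of 10.82, and with PQR309 these were 9.04, 10.31 and 11.09. The levels of the groups overlap, but the line-by-line difference was above 0 in 8 of 8 lines, from 0.25 in TMD8 and 0.27 in DOHH2 to 0.90 in OCILY1 and 1.01 in OCILY18. The mean difference was 0.60 with an SE of 0.08 (limma adjusted p = 0.00125), or 1.52-fold. The lines with the least rise in ISG20 were those with the highest interferon gene levels.

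SAMD9 and SAMD9L, neighbouring genes whose products restrict poxviruses and growth, rose in 8 of 8 lines. For SAMD9 the differences ran from 0.11 in SUDHL10 over a median of 0.29 to 0.46 in OCILY18, with a mean of 0.28 ± 0.04 (SE, limma adjusted p = 0.00198). For SAMD9L they ran from 0.00 to 0.29 and the mean was 0.12 ± 0.04 (SE, limma adjusted p = 0.0307). The SAMD9L call was lost without any one of DOHH2, OCILY18, RIVA, SUDHL2 or TMD8, and without the 4 h arrays, with a mean of 0.06. At 8 h SAMD9L was above 0 in 3 of 8 lines, with a median of -0.01.

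MX2 rose by 0.27 ± 0.06 (SE, limma adjusted p = 0.0098). It was higher in 7 of 8 lines, by 0.15 in SUDHL2 to 0.43 in OCILY1, and was -0.17 in DOHH2. MX1, its close relative, had no call, with -0.67 in TMD8, -0.30 in DOHH2 and 0.34 in OCILY18. IRF1 rose by 0.29 ± 0.08 (SE, limma adjusted p = 0.0181). It was higher in 7 of 8 lines, from 0.10 in TMD8 to 0.77 in OCILY18, and near 0 in U2932 at -0.02. Its call was lost when the 12 h arrays were left out, with a mean of 0.22.

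LAP3, a cytosolic leucine aminopeptidase that trims peptides, fell in 8 of 8 lines. Its differences were -0.11 in SUDHL10, -0.16 in SUDHL2, -0.21 in U2932, -0.23 in DOHH2, -0.29 in RIVA, -0.32 in OCILY18, -0.37 in TMD8 and -0.63 in OCILY1, with a mean of -0.29 ± 0.05 (SE, limma adjusted p = 0.00321). OAS3, which like OAS2 makes the activator of RNase L, fell by 0.20 on the log2 scale (SE 0.06, limma adjusted p = 0.0283). It was lower in 7 of 8 lines, by up to -0.47 in DOHH2, and 0.09 higher in OCILY18. The OAS3 call was lost without any one of DOHH2, OCILY1, RIVA, TMD8 or U2932, and without the 8 h arrays, with a mean of -0.15. At 4 h OAS3 was above 0 in 4 of 8 lines, with a median of 0.02. The other OAS members OAS1, OAS2 and OASL had no call.

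**Figure D2:**
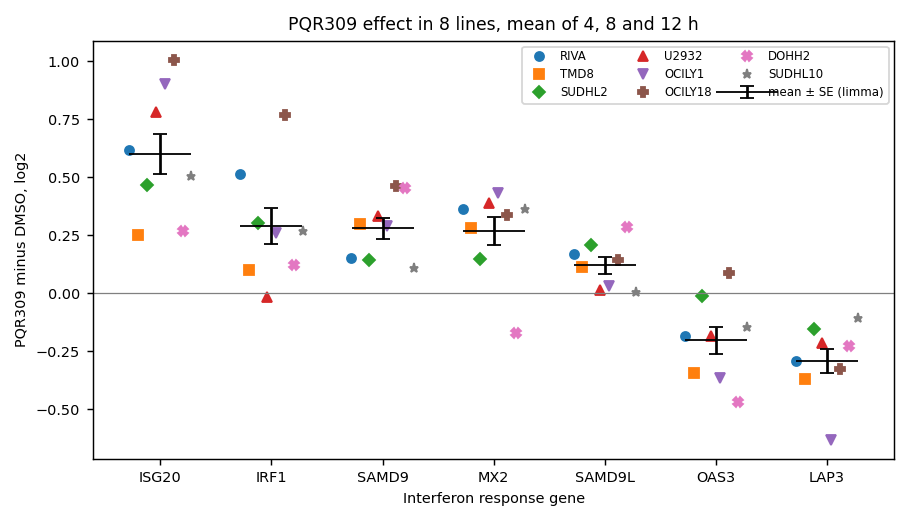
Difference between PQR309 and DMSO on the log2 scale, mean of 3 times, for the 7 interferon response genes called over 8 lines, with each line as a point and the black bar as the limma mean ± SE. ISG20, SAMD9 and SAMD9L lie above 0 and LAP3 below 0 in 8 of 8 lines, and DOHH2 is the line below 0 for MX2 at -0.17.

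The set of called members shifted between 4 and 12 h. At 4 h, 6 of 45 members were called, all higher (17.3% of all genes called, 7.88% higher and 9.45% lower). They were SAMD9 at 0.36, MX2 at 0.33, ISG20 at 0.27, TRIM22 at 0.26, SAMD9L at 0.25 and IRF7 at 0.19, as mean log2 differences with limma adjusted p of 0.00517 to 0.0476. TRIM22 is a ubiquitin ligase of the antiviral response, and IRF7 is the factor that amplifies type I interferon. At 8 h, 4 members were called (16% of all genes, 7.49% higher and 8.49% lower), namely ISG20 at 0.77 and SAMD9 at 0.27, both higher, and LAP3 at -0.35 and OAS3 at -0.30, both lower. At 12 h, 7 were called (20.5% of all genes, 10.5% higher and 10% lower). ISG20 at 0.77, IRF1 at 0.44, MX2 at 0.33 and SAMD9 at 0.21 were higher, and LAP3 at -0.41, ISG15 at -0.33 and BST2 at -0.24 were lower. BST2, also named tetherin, holds budding virus at the cell surface. Several of these calls were lost when single lines were left out: IRF7 at 4 h without any of 6 lines, OAS3 at 8 h and ISG15 at 12 h without any of 5, SAMD9 at 12 h without any of 6, MX2 at 4 h without any of 3 and BST2 at 12 h without U2932.

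The change of the effect between 4 and 12 h was tested directly, and 5 of 45 members were called (10.4% of all genes, 4.87% upward and 5.51% downward). The ISG20 effect grew by 0.50 ± 0.08 (SE, limma adjusted p = 0.00444). The effects on ISG15, BST2, LAP3 and LY6E moved downward, by -0.46, -0.37, -0.29 and -0.20 (limma adjusted p = 0.0104, 0.0288, 0.0368 and 0.0447). The calls of BST2, LAP3 and LY6E were lost when any of several single lines was left out (5, 5 and 7 of the 8 lines). IRF1, IRF7, MX2, OAS3, SAMD9, SAMD9L and TRIM22, which were called at single times, had no call in this test. For them a call at some times only does not show that the effect changed.

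For ISG15 and BST2 the DMSO arrays themselves moved. With DMSO the ISG15 level had a lowest, median and highest line of 6.66, 8.68 and 10.15 at 4 h and of 6.76, 9.33 and 11.70 at 12 h, a mean rise of 0.61 ± 0.13 (SE, limma adjusted p = 0.0241). The largest single rise, 1.55, was that of TMD8. BST2 with DMSO went from 7.34, 8.52 and 9.65 to 7.88, 8.99 and 10.04, a mean rise of 0.46 ± 0.08 (SE, limma adjusted p = 0.0121). These 2 were the members called in that comparison (7.64% of all genes called, 4.14% higher and 3.5% lower). The ISG15 call was lost without any one of RIVA, SUDHL10 or SUDHL2, with 1 to 3 members called when single lines were left out.

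With PQR309, 1 of 45 members was called between 4 and 12 h (2.52% of all genes, 1.41% higher and 1.11% lower). LAP3 fell by 0.23 on the log2 scale (SE 0.05, limma adjusted p = 0.0326), from a lowest, median and highest line of 8.31, 9.39 and 10.32 to 8.08, 9.11 and 9.99. This call was lost without any one of 6 lines, DOHH2, OCILY18, RIVA, SUDHL2, TMD8 or U2932. ISG15 with PQR309 went from a mean of 8.83 to 8.98 and BST2 from 8.55 to 8.65, with no call. The PQR309 effect on ISG15 and BST2 at 12 h thus stood against DMSO levels that had risen, while LAP3 with DMSO had a mean of 9.50 at 4 h and 9.56 at 12 h. ISG20 differed again: its DMSO mean was 9.69 at 4 h and 9.65 at 12 h, and its PQR309 mean was 9.96 and 10.42.

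**Figure D3:**
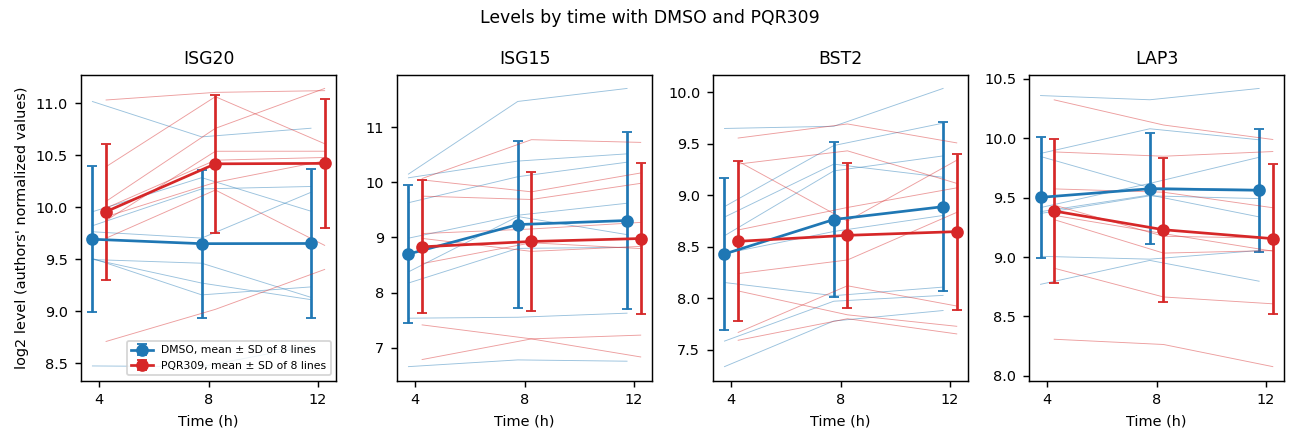
Log2 levels of ISG20, ISG15, BST2 and LAP3 at 4, 8 and 12 h with DMSO (blue) and PQR309 (red), with a thin line for each of 8 lines and thick points for the mean ± SD over lines. The ISG20 means part from 4 h on, while for ISG15 and BST2 the DMSO means rise and the PQR309 means stay closer to their 4 h level.

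The response to PQR309 was not the same in TMD8 and DOHH2, the lines with high levels. The SD of the difference over 8 lines was widest for IFIT1 at 0.51 and CXCL10 at 0.42, and was 0.28 for ISG20, which every line expressed. In TMD8 34 of 45 members were below 0 in the mean of 3 times and the median was -0.19, against 0.00 for all genes in that line. This was not so in DOHH2, where 22 were below 0 and the median was 0.01. In the other 6 lines the median ran from -0.02 to 0.04. These are single lines with no replicate culture, so no test was made of 1 line against another.

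IFIT1 was lower with PQR309 in both high lines. In TMD8 its level with DMSO was 9.04, 10.33 and 10.19 at 4, 8 and 12 h, and with PQR309 it was 8.56, 8.73 and 8.53. In DOHH2 it was 8.63, 9.31 and 8.99 with DMSO and 7.88, 8.03 and 8.30 with PQR309. No PQR309 array of either line reached any DMSO array of that line. Over the 3 times the difference was -1.25 in TMD8 and -0.91 in DOHH2, and it lay between -0.09 and 0.12 in the other lines, where the gene was at background. ISG15 had the same direction in both, at -0.58 in TMD8 and -0.52 in DOHH2, as did USP18 at -0.56 and -0.34 and MX1 at -0.67 and -0.30.

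CXCL10, IFI44L and IFITM1 went opposite ways in these lines. CXCL10 in TMD8 was 10.07, 10.83 and 11.06 with DMSO and 10.12, 10.08 and 9.93 with PQR309. In DOHH2 it was 8.73, 9.42 and 9.21 with DMSO and 9.40, 10.20 and 10.42 with PQR309. The mean differences were -0.61 and 0.88. IFI44L differed by -0.75 in TMD8 and 0.38 in DOHH2, and IFITM1 by -0.52 and 0.45. IFIT3 was -0.75 in TMD8 and 0.01 in DOHH2. LY6E, which DOHH2 alone expressed strongly, was -0.36 there.

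In TMD8 the median over the 45 members was -0.02 at 4 h, -0.30 at 8 h and -0.28 at 12 h. In the other arrays of this line, in the raw table, the median over 44 members was -0.21 at 4 h, -0.82 at 8 h and -0.27 at 12 h. The difference at 4 h was smaller than that at 12 h in both sets of arrays, although -0.21 and -0.27 lie close together. In the normalized table the DMSO arrays of TMD8 rose in the same interval, as for IFI44L from 7.62 at 4 h to 9.13 at 12 h, while the PQR309 arrays gave 7.49 and 7.99. In the raw table the DMSO arrays of TMD8 did not all go this way, as the values of IFIT1, CXCL10 and MX1 below show.

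The raw table holds another set of arrays for 4 lines. Of 44 members in TMD8, 32 were below 0 in both sets of arrays, 9 above 0 in both and 3 opposite. In RIVA 22 were below in both, 5 above and 17 opposite, in SUDHL2 9, 18 and 17, and in U2932 16, 15 and 13. Whether both sets came from the same RNA is not stated. The Pearson correlation of the differences across the 44 genes, which share arrays and are not independent, was 0.86 in TMD8, 0.76 in U2932, 0.65 in RIVA and 0.37 in SUDHL2.

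Whether the PQR309 effect differed between the 4 lines that received every inhibitor and the other 4 was tested across all genes. limma called 0 of 45 members and 0 of 12440 genes (0% called), with 3 members and 543 genes at an unadjusted p under 0.05. TMD8 lies in the first group and DOHH2 in the second.

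The other inhibitors were compared with DMSO in RIVA, TMD8, SUDHL2 and U2932 on 60 raw arrays, averaged over the 3 times for each line. The 4 comparisons share the same DMSO arrays. Idelalisib lowered 3 of 44 members (4.67% of all 12559 genes called, 2.75% higher and 1.92% lower). Duvelisib had 0 calls among members (0.0159% of all genes, all of them higher, and 0% lower, with 7 members and 1832 genes at an unadjusted p under 0.05), and ibrutinib had 0 (2.97% of all genes, 1.19% higher and 1.78% lower, with 10 members and 2835 genes at an unadjusted p under 0.05). PQR309 had 2 higher and 4 lower (13.5% of all genes called, 7.22% higher and 6.28% lower). The members' median difference was -0.13 with idelalisib, -0.11 with duvelisib, -0.10 with ibrutinib and -0.16 with PQR309, and the median of all genes lay within 0.01 of 0 in each. Below 0 were 35, 35, 33 and 36 of the 44 members. The lines were unlike in this: the medians in TMD8 and RIVA lay between -0.49 and -0.12 over the 4 inhibitors. In SUDHL2 they were 0.02 with idelalisib, 0.03 with duvelisib, -0.02 with ibrutinib and 0.03 with PQR309, and in U2932 they were 0.06, 0.00, 0.03 and 0.01.

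CXCL10, GBP1 and BST2 were the members that idelalisib lowered. CXCL10 differed by -2.26 in TMD8, -0.75 in RIVA, -0.72 in SUDHL2 and 0.19 in U2932, where it was near background, with a mean of -0.88 ± 0.23 (SE, limma adjusted p = 0.0398). Without TMD8 the mean was -0.43 and the call was lost. GBP1 differed by -0.82 in TMD8, -0.64 in SUDHL2, -0.11 in U2932 and -0.10 in RIVA, with a mean of -0.42 ± 0.10 (SE, limma adjusted p = 0.0262). BST2 was lower in 4 of 4 lines, by -0.71 in RIVA, -0.56 in SUDHL2, -0.31 in U2932 and -0.16 in TMD8, with a mean of -0.43 ± 0.11 (SE, limma adjusted p = 0.0405). Leaving out RIVA, SUDHL2 or TMD8 ended the calls of all 3 genes, and leaving out U2932 ended that of BST2.

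Beside these values stand those of the other inhibitors for the same genes. CXCL10 differed from DMSO by -0.65 with duvelisib (95% interval -1.14 to -0.16), -0.70 with ibrutinib (-1.19 to -0.21) and -0.56 with PQR309 (-1.05 to -0.07). BST2 differed by -0.26 with duvelisib (-0.50 to -0.02) and -0.37 with ibrutinib (-0.62 to -0.13). GBP1 differed by -0.25 with duvelisib (-0.45 to -0.04), -0.30 with ibrutinib (-0.51 to -0.09) and -0.16 with PQR309 (-0.37 to 0.04). None of these 8 differences passed the adjusted threshold, with limma adjusted p of 0.0751 to 0.304, although 7 of the intervals lie below 0. In TMD8 alone CXCL10 was lower with each inhibitor, by -2.26 with idelalisib, -1.58 with duvelisib, -1.53 with PQR309 and -1.43 with ibrutinib.

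With PQR309 in the same 4 lines, MX2 rose by 0.29 ± 0.07 and ISG20 by 0.43 ± 0.09 (SE, limma adjusted p = 0.0101 and 0.00777), each in 4 of 4 lines. LAP3 fell by 0.44 on the log2 scale (SE 0.09, limma adjusted p = 0.0063) and BST2 by 0.42 (SE 0.11, limma adjusted p = 0.0236), each in 4 of 4 lines. IFIH1, also named MDA5, which senses long double-stranded RNA, fell by 0.48 (SE 0.13, limma adjusted p = 0.0182), with -1.10 in TMD8, -0.57 in RIVA, -0.26 in SUDHL2 and 0.00 in U2932. IFIT1 fell by 0.78 (SE 0.25, limma adjusted p = 0.0433), with -2.28 in TMD8, -0.66 in RIVA, -0.22 in SUDHL2 and 0.02 in U2932. Without TMD8 the IFIH1 mean was -0.28 and the IFIT1 mean was -0.29, and both calls were lost. The IFIT1 call was also lost without each other line and the IFIH1 call without RIVA, those of MX2 and LAP3 without TMD8 or U2932, that of ISG20 without U2932, and that of BST2 without RIVA, TMD8 or U2932. With the other arrays of the normalized table for these lines none of the 6 members was called, and the means were 0.30 for MX2, 0.53 for ISG20, -0.26 for LAP3, -0.05 for BST2, -0.20 for IFIH1 and -0.35 for IFIT1. That fit used paired differences of PQR309 and DMSO alone in place of the fit of all treatments. With such a fit of the raw arrays none of the 6 members was called either. For the lost calls, the part of the arrays thus cannot be told apart from that of the fit. The means do not depend on which of these fits is used, since each line received every treatment. They differ with the arrays and their normalization.

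**Figure D4:**
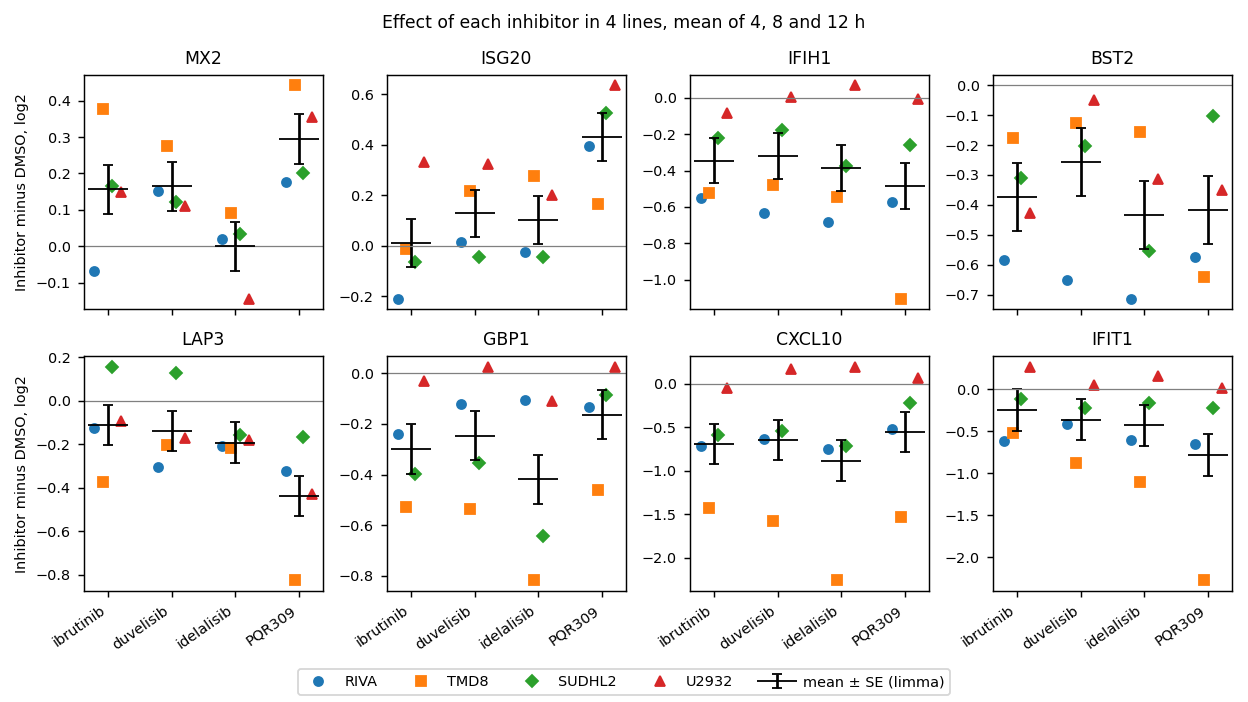
Difference of each inhibitor from DMSO on the log2 scale, mean of 3 times, in RIVA, TMD8, SUDHL2 and U2932 for the 8 interferon response genes called with idelalisib or PQR309, with the black bar as the limma mean ± SE. TMD8 lies lowest for CXCL10, GBP1 and IFIT1 under each of the 4 inhibitors except for IFIT1 with ibrutinib, where RIVA lies lowest, and ISG20 rises clear of 0 in the PQR309 column.

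The 4 inhibitors were also set against each other, in 6 pairs. In no pair was any of the 44 members called. The share of all genes called was 0.0876% for PQR309 against idelalisib (0.0557% higher and 0.0318% lower), 0.0557% for PQR309 against ibrutinib (0.0478% higher and 0.00796% lower), 0.00796% for ibrutinib against idelalisib and 0% for the other 3 pairs. The members at an unadjusted p under 0.05 numbered 4, 4, 2 and, for PQR309 against duvelisib, duvelisib against idelalisib and ibrutinib against duvelisib, 2, 1 and 1. Adjustment ran over all genes within each pair, and adjusting further over the 6 pairs would raise these p. These results do not show that the compounds act alike. For CXCL10 the difference of PQR309 from idelalisib was 0.33 with a 95% interval of -0.16 to 0.82. For IFIT1 the difference of PQR309 from ibrutinib was -0.53 with an interval of -1.05 to -0.02, and for ISG20 it was 0.42 with an interval of 0.22 to 0.62 (limma adjusted p = 0.426 and 0.1). Duvelisib and idelalisib, which both carry a purine group but differ in the ring system it is joined to, differed by 0.24 for CXCL10 (95% interval -0.25 to 0.73) and by 0.17 for GBP1 (-0.03 to 0.38), and for MX2 by 0.16 (0.02 to 0.31), and none of the 3 had a limma adjusted p under 0.05. Doses are not given, so whether they matched is unknown.

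Single arrays are given here for TMD8, the line with the highest DMSO levels of these 4. IFIT1 there was 10.15, 10.42 and 8.95 at 4, 8 and 12 h with DMSO. It was 9.49, 9.25 and 9.23 with ibrutinib and 9.65, 8.92 and 8.31 with duvelisib. With idelalisib it was 9.13, 8.83 and 8.27, and with PQR309 it was 8.41, 7.37 and 6.92. At each time PQR309 was the lowest of the 5, and at 4 and 8 h DMSO was the highest.

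CXCL10 in TMD8 had another order. It was 9.85, 11.05 and 9.85 with DMSO, 9.03, 8.97 and 8.48 with ibrutinib and 8.97, 8.96 and 8.09 with duvelisib. With idelalisib it was 8.27, 8.13 and 7.58, and with PQR309 it was 9.15, 8.68 and 8.33. Every inhibitor array lay under every DMSO array of this line, and idelalisib was the lowest at each time. IFIH1 was 9.25, 9.27 and 9.25 with DMSO, and 8.31, 7.84 and 8.30 with PQR309, and the arrays of the other inhibitors, from 8.36 upward, all stayed below the DMSO arrays.

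MX1 in TMD8 was 11.65, 12.91 and 12.42 with DMSO and 10.71, 11.18 and 11.10 with PQR309, while with ibrutinib it was 11.24, 12.19 and 12.47, inside the DMSO range at 8 h and above the DMSO array at 12 h. Below 0 at all 3 times in TMD8 were 25 of 44 members with PQR309, 22 with idelalisib, 19 with duvelisib and 9 with ibrutinib. The medians over members in the mean of 3 times were -0.49, -0.31, -0.21 and -0.13. In RIVA 19, 17, 11 and 18 members were below 0 at all 3 times, and the medians were -0.13, -0.17, -0.12 and -0.19. RIVA thus had fewer such members than TMD8 with PQR309, idelalisib and duvelisib and more with ibrutinib. In the mean of 3 times, 38, 38, 35 and 42 members were below 0 in RIVA, against 34, 35, 36 and 30 in TMD8.

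**Figure D5:**
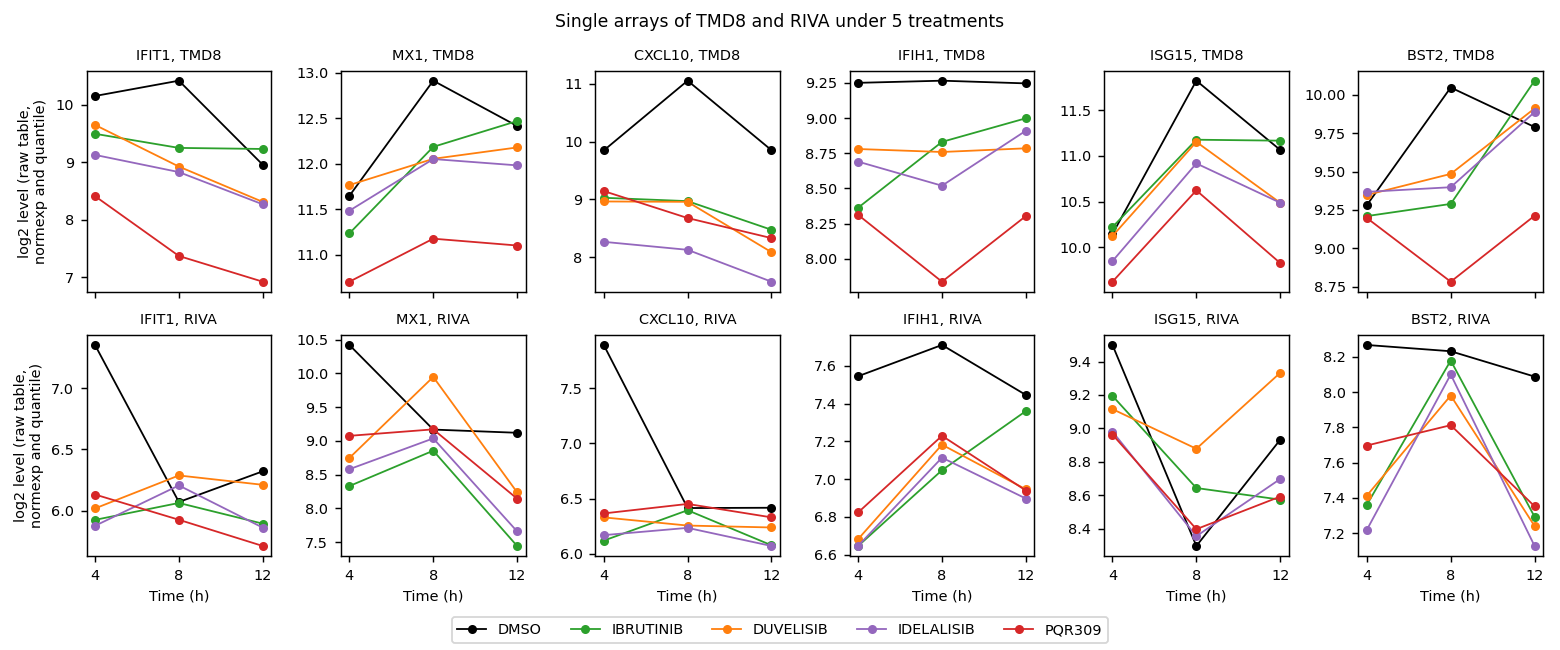
Log2 levels from the raw table (normexp and quantile normalization) of 6 interferon response genes in TMD8 and RIVA, 1 array per point, under DMSO and 4 inhibitors at 4, 8 and 12 h. In TMD8 the PQR309 array is the lowest at each time for IFIT1, MX1, IFIH1 and ISG15 and the idelalisib array for CXCL10, and in RIVA the DMSO array at 4 h stands high for IFIT1, MX1 and CXCL10.

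Some DMSO arrays stood apart for several members at once, and each is shared by the differences of all 4 inhibitors at its time. In RIVA MX1 with DMSO was 10.42 at 4 h, 9.17 at 8 h and 9.12 at 12 h, CXCL10 was 7.89, 6.41 and 6.42, and IFIT1 was 7.35, 6.07 and 6.32. The median difference over members in RIVA at 4 h, which rests on that array for every inhibitor, was -0.28 with PQR309, -0.42 with idelalisib, -0.39 with duvelisib and -0.42 with ibrutinib. At 8 h the medians in RIVA were -0.03, 0.03, 0.07 and 0.00. In TMD8 the DMSO array at 8 h stood high for MX1, CXCL10 and ISG15, and the medians at 8 h were -0.82, -0.66, -0.58 and -0.51, against -0.27, -0.06, -0.09 and 0.25 at 12 h. In SUDHL2 at 8 h the differences of all genes spread widely, with an SD of 0.65 with idelalisib, 0.56 with duvelisib and 0.55 with ibrutinib. These SDs were 0.26, 0.26 and 0.22 at 4 h and 0.21, 0.15 and 0.18 at 12 h. With PQR309 the SD was 0.35 at 8 h, against 0.21 at 4 h and 0.19 at 12 h. The DMSO array of SUDHL2 at 8 h had the lowest raw median, 78.3. The part of these DMSO arrays in the mean differences was not tested. With all arrays of 1 time left out, 1 member was called with idelalisib and 5 with PQR309 without 4 h, 0 and 2 without 8 h, and 3 and 5 without 12 h.

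Genes upstream of the response were taken from a list of 38 ligands, receptors, kinases, sensors, adaptors and feedback genes, of which 36 had a named probe and 30 were tested over 8 lines. The ligands IFNA1, IFNA2, IFNB1, IFNG and IFNL1 and the receptor TLR3 failed the filter, and other interferon genes were not on the list. In the mean of 3 times PQR309 raised 6 and lowered 6 of the 30, where 26.5% of all genes were called. The receptor chains IFNAR1 at 0.27, IFNGR2 at 0.14 and IL10RB at 0.34, the kinases JAK1 at 0.32 and TYK2 at 0.15, and PIAS1, a SUMO ligase that damps the response, at 0.19, were higher. The type II receptor chain IFNGR1 at -0.19 was lower. So were the DNA-sensing receptor TLR9 at -0.40 with its adaptor MYD88 at -0.31 and the kinase IRAK1 at -0.27, MAVS, the adaptor of RNA sensing, at -0.12, and the DNA sensor CGAS at -0.20. Limma adjusted p ran from 0.000763 for MYD88 to 0.0472 for IFNGR2.

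IRF4 and SPIB, which are known to repress IRF7 in activated B-cell-like lymphoma, were lower with PQR309 over 8 lines, by -0.35 ± 0.11 and -0.66 ± 0.15 (SE, limma adjusted p = 0.0329 and 0.0102). IRF7 beside them was 0.13 in mean difference with no call, from -0.33 in TMD8 to 0.41 in DOHH2. In the 4 lines IRF4 was lower with idelalisib by -0.78 ± 0.19 and with PQR309 by -0.66 ± 0.19 (SE, limma adjusted p = 0.0335 and 0.0346). Of 29 upstream genes tested there, PIAS1 rose with idelalisib, ibrutinib and PQR309 at 0.31, 0.32 and 0.30. With PQR309 the feedback inhibitor SOCS1 at 0.35 and IL10RB at 0.53 rose and CGAS at -0.30 fell. Duvelisib had 0 calls among these 29 genes (0.0159% of all genes called), with 2 at an unadjusted p under 0.05. The shares of all genes called were 4.67% with idelalisib, 2.97% with ibrutinib and 13.5% with PQR309.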

How the data were processed

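Gene expression was measured on 84 arrays of 8 lymphoma lines, 1 array for each line, treatment and time. The authors deposited normalized log2 values, normalized apart for the 48 arrays of DMSO or PQR309 (median 6.64) and for the 36 others (median 6.66), as the values show. The deposited raw table holds probe intensity for 81 arrays, with array medians of 78.3 to 139.7, and detection p-values in the column of the other 3, per the file headers and values. GenomeStudio was used per the submitters' processing notes, with no version given, and a genome build is not given in the sources used here. Of 47231 probes 30113 carried 1 symbol, 8 several and 17110 none, by the platform annotation.

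Comparisons over 8 lines used the normalized values. Those over 4 lines used 60 raw arrays whose intensities were background-corrected by normexp with an offset of 50, then quantile-normalized and put on the log2 scale. The brighter 50% of probes and the brightest probe per gene were kept, which left 12440 and 12559 genes. Line means were fitted with lmFit and eBayes in limma 3.58.1 (R 4.3.3), with line as a block and all 5 treatments in 1 fit for the 4 lines, two-sided, with Benjamini-Hochberg adjustment over all genes and a threshold of 0.05. Intervals are 95% intervals from that fit. The line pairs the samples because each line received every treatment compared, so the block is part of the main comparison. Same-line profiles were correlated after each gene was centred on its mean over lines within a treatment. DMSO and PQR309 correlated at 0.925 to 0.954 over 8 lines. All pairs of the 5 treatments correlated at 0.877 to 0.980 over 4 lines. The number of lines limits the precision. The fits were tested on simulated data with known changes.

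All members could be named, with values by line for those called in the mean of 3 times, in the change of the effect or in the 4 lines, and for the 5 widest ranges. Upstream genes were named where called, and IRF4 and SPIB as known repressors of IRF7. Members, lists and tests were chosen with earlier results of these data known. Alternatives covered the filter, probe choice, centring, background correction, the other table, each time and line, and the block.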

Additional observations from a re-analysis of the deposited data

Results flagged for a closer look

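Of 46 groups of line values checked, 4 held a line far from the others by Dixon's criterion. Chance alone gives about 1 in 20 for independent groups that were not chosen by their values. The groups here were the line values of called members and the DMSO levels of the members with the widest ranges. They were chosen from the same data and share lines, so the count of 4 cannot be judged against that rate. The MX2 difference with PQR309 was -0.17 in DOHH2, where the nearest line was at 0.15. The DMSO rise of ISG15 from 4 to 12 h was 1.55 in TMD8, with the next line at 0.73. The DMSO level of LY6E was 12.07 in DOHH2, with the next line at 8.18, and that of IFITM1 was 10.88 in DOHH2, with the next at 8.50.

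The PQR309 effect differed between 12 and 4 h, by a test of that difference in limma, for ISG20 (0.50), ISG15 (-0.46), BST2 (-0.37), LAP3 (-0.29) and LY6E (-0.20). For LY6E the difference in DOHH2, the one line with a high level, was -0.16 at 4 h and -0.54 at 12 h.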

How the results depend on the processing

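In the 9 comparisons with calls, 77 recomputed counts of called members stayed within 1.5 times the main count and 50 did not. The 10 comparisons with 0 calls had none to lose, and gave 0 again in 151 recomputed counts and 1 call in 1. With no replicate block, which ignores that samples are paired by line, 0 members were called in each comparison that otherwise had calls: 0 in place of 7 for the mean of 3 times, 6 at 4 h, 4 at 8 h, 7 at 12 h, 5 for the change of the effect, 2 for DMSO and 1 for PQR309 over time, 3 for idelalisib and 6 for PQR309 in 4 lines. With the raw table, which holds other arrays and, except for DMSO over time, 6 or 7 of the lines, the counts were 3 for the mean of 3 times (ISG20, LAP3 and MX2, all in the main result), 0 at 4 h, 1 at 8 h, 3 at 12 h and 0 for the 3 comparisons over time. There the LY6E change of the effect reversed to 0.0059 (limma adjusted p = 0.992).

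With no filter, 3 members were called for the change of the effect and 1 for idelalisib. For idelalisib the count was 0 at 4 h alone, 1 at 8 h alone, 0 at 12 h alone, 0 with median centring, 0 with paired differences of 2 treatments, 1 without the 4 h arrays and 0 without the 8 h arrays. For PQR309 in 4 lines it was 0 at 4 h alone, 2 at 8 h alone, 0 with median centring, 0 with paired differences, 0 with the normalized table and 2 without the 8 h arrays. The normalized table was there fitted as paired differences too. For ibrutinib it was 1, SAMD9L, without the 4 h arrays. The settings without a time in the 4 lines were chosen after seeing the data. The cause of these moves was not tested.

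When single lines were left out, the counts ran from 5 to 7 for the mean of 3 times, 4 to 7 at 4 h, 3 to 6 at 8 h and 5 to 8 at 12 h. They ran from 2 to 5 for the change of the effect, 1 to 3 for DMSO over time, 0 to 1 for PQR309 over time, 0 to 2 for idelalisib and 1 to 5 for PQR309 in 4 lines, and from 0 to 0 for the others. Among single genes the calls of ISG20 and LAP3 in the mean of 3 times and at 12 h and of MX2 in the same comparisons were lost only with no replicate block. The IFIT1 call in 4 lines was lost under 16 of 17 settings. Levels under 6.73 or 6.27 are near background, where a difference is understated.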

Other observations

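MX1 in U2932 was near background on 14 of 15 raw arrays, between 5.98 and 6.43, and was 7.63 with ibrutinib at 12 h. IFI44L has more than 1 probe, and the probe that is brighter in the raw table differs from that of the normalized table. In the raw arrays of TMD8 the probe used for the 8 lines had a mean of 8.24 with DMSO and 6.76 with PQR309, and the probe used for the 4 lines had 6.70 and 6.47. Among members with a DMSO level over 8 in a line, the median PQR309 difference was -0.32 over 32 members in TMD8, 0.10 over 30 in DOHH2 and 0.20 over 10 in OCILY18. These members were chosen by level after the values were seen, and no test was made.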
